A study of Gossypium hirsutum with 6 samples.

Results

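Transcripts of 3 genes of iron storage and glutathione metabolism were followed through fiber development in *G. hirsutum* L. cv. TM1 (Upland cotton). They are ferritin 3 (probe GA_10dpa_fiberEST_10012, described as a chloroplast precursor), a glutathione S-transferase (GST, probe GA_10dpa_fiberEST_11644) and a probable glutathione peroxidase (GPX, probe GA_10dpa_fiberEST_05938). The 3 probes were chosen by their descriptions and selected on their deposited profiles, which stood far from 5 dpa at every stage, so the stage values below are given as a description, with no test. They are 3 of the 11882 features with a value at all 6 stages, out of 12262 in the deposited table.

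Cotton fibers are single-celled hairs of the seed coat, which elongate with a primary cell wall (PCW) and then deposit a cellulose-rich secondary cell wall (SCW). Ferritin is a protein shell that stores iron, and in plants it is found mainly in plastids. GST joins the tripeptide glutathione to reactive or foreign compounds, and some plant members bind flavonoids or related compounds on their way to the vacuole. GPX reduces hydrogen peroxide and lipid peroxides, and plant forms commonly draw electrons from thioredoxin as well as, or in place of, glutathione. Iron that is free in the cell can turn hydrogen peroxide into more reactive oxygen species, which places iron storage and peroxide removal in related parts of redox metabolism.

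RNA from greenhouse-grown TM1 fiber was sampled by age in days post-anthesis (dpa). Fiber of 8, 10, 14, 17, 21 and 24 dpa was set against fiber at 5 dpa on 2-colour oligonucleotide arrays, in a double loop with dye swaps. All groups were of the same cultivar, and the labels name no treatment other than age. Each stage has 1 deposited profile, a set of log2 ratios to 5 dpa from a model over the whole loop, so the values carry no replicate error and no p-value was computed. In RNA from harvested fiber, fewer cells of a type and less RNA per cell cannot be told apart.

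Named features of fiber and green tissue were read beside the members. Their values are ratios to 5 dpa fiber, so they cannot show the tissue origin of the RNA. The late fiber gene FbL2A reached a log2 ratio of 7.83 at 24 dpa. At that stage 3 of 7 fiber genes, itself included, were past 2-fold on the higher side of 5 dpa, beside 11.3% of all features. On the lower side were 2, both sucrose synthase probes (-2.41 and -2.68), beside 12.3% of all features. None of the 4 chlorophyll a/b binding control features was 2-fold higher at any stage, and their median log2 ratio lay between -0.70 and -0.33, although they were above the buffer spots in 8 to 11 of 12 scanner files. Whether RNA of green tissue took part in the ferritin values was not tested.

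Ferritin 3 was higher than at 5 dpa at all 6 stages. In order of age (8, 10, 14, 17, 21 and 24 dpa), its log2 ratio was 1.78, 2.28, 2.98, 3.01, 3.66 and 3.22. The transcript was thus already 3.44-fold higher at 8 dpa, was 7.89-fold and 8.05-fold higher at 14 and 17 dpa, and stood at its highest, 12.6-fold, at 21 dpa. At 24 dpa it was 9.34-fold higher. Few features lay as far on the higher side, 0.699%, 0.337%, 0.269%, 0.412% and 0.219% of all features in order of age up to 21 dpa. At 24 dpa the share was 1.14%, or 135 features. The whole profile was widest there, and ferritin 3 itself had a smaller value than at 21 dpa.

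GPX was also higher at all 6 stages, with a course less even than that of ferritin 3. In the same order of age, its log2 ratio was 1.81, 1.38, 2.07, 1.62, 2.18 and 3.58. The transcript was 3.51-fold, 2.61-fold, 4.20-fold, 3.07-fold and 4.54-fold higher at the stages up to 21 dpa, and 11.98-fold higher in fiber of 24 dpa. The value at 10 dpa was the smallest in size of the 18 member values and the only one under 3-fold. Between 0.598% (14 dpa) and 2.24% (17 dpa) of all features lay as far on the higher side, and at 24 dpa 88 features did (0.741%). No unflagged spot of this probe stood above the buffer spots in the scanner files analysed here, so these values rest on weak signal as far as the files show it.

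GST was lower than at 5 dpa at all 6 stages, and further so at each stage from 14 dpa on. In order of age, its log2 ratio was -1.88, -1.76, -2.42, -3.11, -3.63 and -4.28. The transcript was 3.68-fold and 3.38-fold lower at 8 and 10 dpa, 5.35-fold and 8.65-fold lower at 14 and 17 dpa, and 12.4-fold and 19.5-fold lower at 21 and 24 dpa. On the lower side, 0.471% of features lay as far at 8 dpa, 19 features (0.160%) did at 21 dpa and 17 features (0.143%) did at 24 dpa. The value at 24 dpa was thus the farthest from 5 dpa of the 18 and the one with the fewest features as far.

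**Figure D1:**
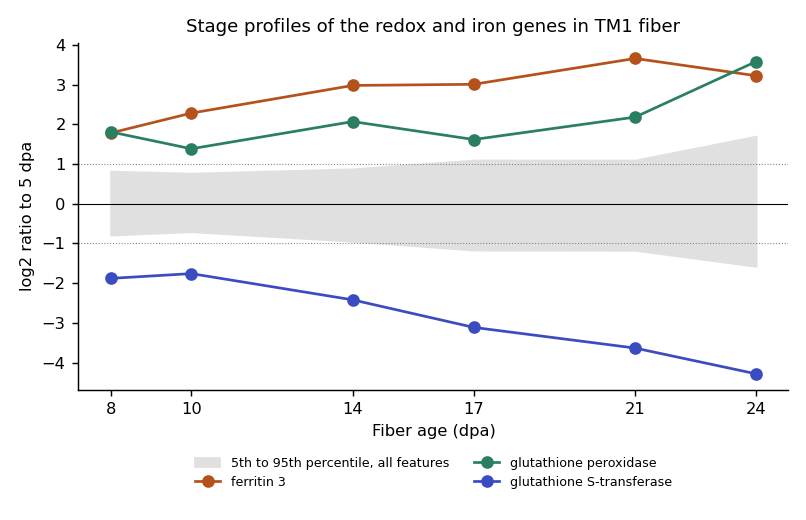
Deposited log2 ratio to 5 dpa (vertical axis) of ferritin 3, GPX and GST against fiber age in dpa, with 1 deposited value per point; the grey band spans the 5th to the 95th percentile of the 11882 features and dotted lines mark a 2-fold change. Ferritin 3 and GPX lie above the band and GST below it at all 6 stages, and GPX passes ferritin 3 at 24 dpa, with 3.58 against 3.22.

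All 18 values of the 3 genes passed 2-fold. Among all features, 3.20% passed 2-fold on the higher side and 2.77% on the lower side at 8 dpa. The shares were 2.82% higher and 2.08% lower at 10 dpa, 3.79% higher and 4.26% lower at 14 dpa, and 5.90% higher and 7.09% lower at 17 dpa. They were 5.97% higher and 7.02% lower at 21 dpa, and 11.3% higher and 12.3% lower at 24 dpa. Only 0.564% of features (67) were higher at all 6 stages and 0.328% (39) were lower at all 6, and nothing is read from the members' count, since these values chose them.

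At 8 dpa ferritin 3 had 48.7% of its farthest log2 ratio, GPX had 50.5% and GST had 43.9%. These shares describe the profiles on which the genes were selected.

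The ratio to 5 dpa cancels in a difference between later stages, although the fit over the whole loop can also draw on the 5 dpa arrays. As a guide to their error, 17 probe numbers occur with a pair of entries in the deposited table, and the difference within a pair was taken for each step. For neighbouring stages the median difference within a pair lay between 0.14 and 0.28 on the log2 scale, and the largest reached 2.43 to 4.73. The median size of change over all features was 0.15 to 0.31 in these steps. Whether both entries of a pair measure the same transcript was not examined, so this guide is rough.

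Among neighbouring stages, ferritin 3 gained most between 10 and 14 dpa and nearly as much between 17 and 21 dpa. Its log2 ratio changed by 0.50 between 8 and 10 dpa and by 0.70 between 10 and 14 dpa, and 10.3% and 2.90% of all features changed as far upward. In each of these steps 1 of the 17 pairs differed by as much. Between 14 and 17 dpa it changed by 0.03, which 15 of 17 pairs exceeded, so no change was detectable in that step. It gained a further 0.65 between 17 and 21 dpa (6.56% of features, 3 pairs), and then changed by -0.44 between 21 and 24 dpa. That last step was within what 6 of the 17 pairs differed by, and 20.1% of features changed as far downward.

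GST did not move beyond this spread between 8 and 10 dpa, with a change of 0.12 that 11 of 17 pairs exceeded. It then fell by 0.66 between 10 and 14 dpa and by 0.69 between 14 and 17 dpa, steps that 3.93% and 4.31% of features matched and that 1 pair matched in each. The changes of -0.52 between 17 and 21 dpa (8.87% of features, 3 pairs) and of -0.65 between 21 and 24 dpa (12.1% of features, 5 pairs) were of like size but more common in the profile. From 8 to 24 dpa the change was -2.40, which 1.42% of features and 2 pairs matched.

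The values of GPX went down and up by turns. Its log2 ratio changed by -0.43 between 8 and 10 dpa (13.0% of features, 3 pairs) and by 0.68 between 10 and 14 dpa (3.00%, 1 pair). It changed by -0.45 between 14 and 17 dpa (8.26%, 1 pair) and by 0.56 between 17 and 21 dpa (8.21%, 3 pairs). No unflagged spot of GPX stood above the buffer spots in the scanner files, so no course is read from these 4 changes. The 4 changes leave a difference of 0.37 between 8 and 21 dpa, which 22.0% of features and 7 of 17 pairs matched, so no net change was detectable over that span. The step from 21 to 24 dpa was the largest of the 15 steps between neighbouring stages, at 1.40, and 5.22% of features and 3 of 17 pairs changed or differed as far in it. Ferritin 3 had the value of -0.44 in this last step. However, the features that, like GPX, stood above the buffer spots in 0 scanner files also moved in it. Their median log2 ratio was 0.21 at 21 dpa and 1.55 at 24 dpa, so no difference between the genes is read from this step.

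**Figure D2:**
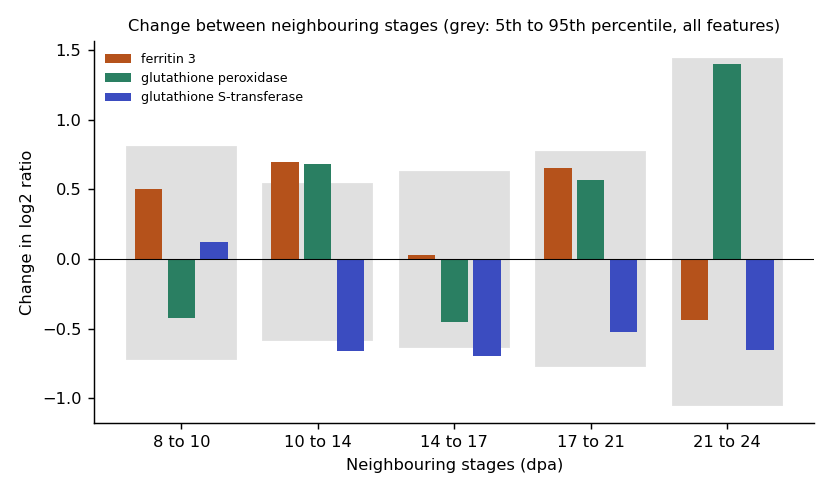
Change in log2 ratio between neighbouring stages (vertical axis) for ferritin 3, GPX and GST, with the stages in dpa on the horizontal axis; the grey boxes span the 5th to the 95th percentile of all features. Ferritin 3 (0.70), GPX (0.68) and GST (-0.66) leave the box between 10 and 14 dpa and GST (-0.69) leaves it between 14 and 17 dpa. The step of 1.40 in GPX between 21 and 24 dpa stays inside a much wider box. No unflagged spot of GPX stood above the buffer spots in the scanner files.

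The log2 ratio of GPX minus that of GST was 3.69 at 8 dpa and 3.14 at 10 dpa, and 7.87 at 24 dpa. The same difference for ferritin 3 and GST was 3.66 at 8 dpa and 7.51 at 24 dpa. Over the 6 stages, Pearson's r was -0.83 between ferritin 3 and GST, -0.80 between GPX and GST, and 0.48 between ferritin 3 and GPX. These are descriptions over 6 points that share the 5 dpa samples and the fit, and the genes were selected on these values.

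The scanner files show how much signal lies behind the profiles. The 12 files come from 7 arrays, 5 of them with both dye images, and each holds 2 spots of each probe. The intensity above the local background was compared with the buffer spots of the same file, and the limit was their median plus 3 scaled median absolute deviations, which lay between 37.4 and 275 intensity units. Since every sample is labeled with both dyes, the stage behind a dye image is not known from the labels. Therefore a file is named by the stage it is filed under and its dye, and no stage is read from it.

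Ferritin 3 was above the limit in 9 of 12 files. Its mean net intensity ranged from 33.3 to 1476 with a median of 389. The file of the array shared by the 14 and 17 dpa samples had 1383 and 1569 in its Cy5 spots and 770 and 834 in its Cy3 spots, so both dyes were bright on that array. On the array filed under 10 dpa the Cy3 spots had 453 and 475 and the Cy5 spots 34.0 and 36.0, on either side of the limits of 60.3 (Cy3) and 47.3 (Cy5). The other files below the limit were the Cy3 images filed under 8 dpa (97.8 and 122 against 182) and 24 dpa (32.4 and 34.2 against 37.4). Against the buffer mean plus 3 SD, the kind of limit that the methods name, ferritin 3 was above it in 0 files.

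GST was above the limit in 10 of 12 files, with a mean net intensity from 5.03 to 1657 and a median of 772. Its contrast within an array was sharpest on the arrays filed under 21 and 24 dpa. The first had 1077 and 888 in Cy3 and 44.0 and 30.0 in Cy5. The second had 1986 and 1329 in Cy5 and 4.23 and 5.82 in Cy3, an image whose spots were dim throughout, with a median of 32.8. The Cy5 image filed under 21 dpa and the Cy3 image filed under 24 dpa were the only ones of the 12 in which GST did not pass the limit. With the mean plus 3 SD it passed in 3 files.

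GPX was above the limit in 0 of 12 files. Of its 24 spots 18 were unflagged, and 0 of these 18 passed the limit. The mean net intensity in the 11 files with an unflagged spot ranged from -29.6 to 106 with a median of 28.3, and it was below 0 in 2 of them. The brightest spot, in the Cy5 image filed under 17 dpa, had 176 against a limit of 275, and its partner on the same array had 34.6. In the 5 files where both spots were positive they differed by a median of 1.59 on the log2 scale, against 0.16 for ferritin 3 and 0.23 for GST over 12 files each. The paired spots of GPX thus differed more than those of the other 2 genes.

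**Figure D3:**
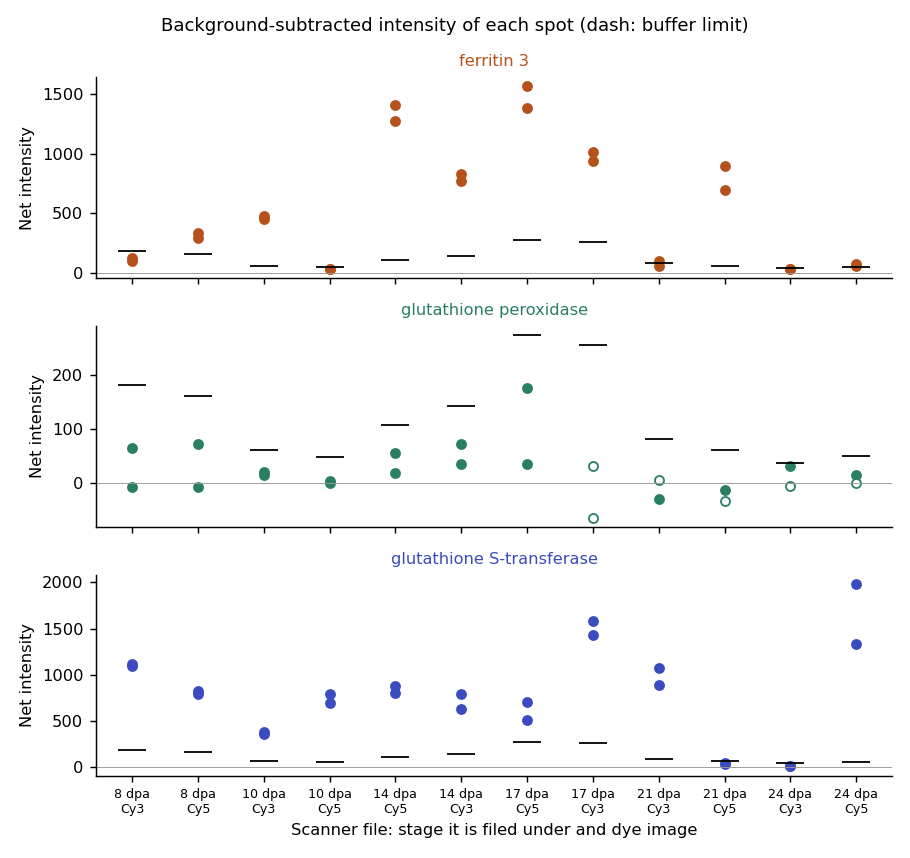
Net intensity (signal minus local background, vertical axes with a scale of their own in each panel) of both spots of ferritin 3, GPX and GST in each of 12 scanner files, named by the stage they are filed under and the dye; black dashes mark the buffer limit of the file and open circles are flagged spots. Ferritin 3 and GST pass the limit in 9 and 10 files, and all spots of GPX lie under it.

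Probes with as little signal as GPX had profiles that differed from those of brighter probes. The features above the limit in 0 files numbered 318 (2.68% of 11882), and 65.4% of them (208) were at least 2-fold higher at 24 dpa. Their median log2 ratio was 1.55 at 24 dpa, against 0.21 at 21 dpa. Of the 7486 features above the limit in at least 10 files, 4.18% (313) were at least 2-fold higher at 24 dpa, with a median of -0.09. Between these classes lay the 4078 features above it in 1 to 9 files, ferritin 3 among them. Of these, 20.0% (816) were at least 2-fold higher at 24 dpa, with a median of 0.18. At 8 to 21 dpa, 20.1% to 25.2% of the 318 dim features were at least 2-fold higher, against 0.989% to 3.41% of the bright ones. Of the dim features, 11.3% (36) were as far on the higher side as GPX at 24 dpa and 7.23% to 12.6% at the earlier stages, which again describes values that chose the gene. The part of weak signal in the GPX and ferritin 3 profiles was not tested, and arrays of the loop other than these 7 were not analysed here.

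**Figure D4:**
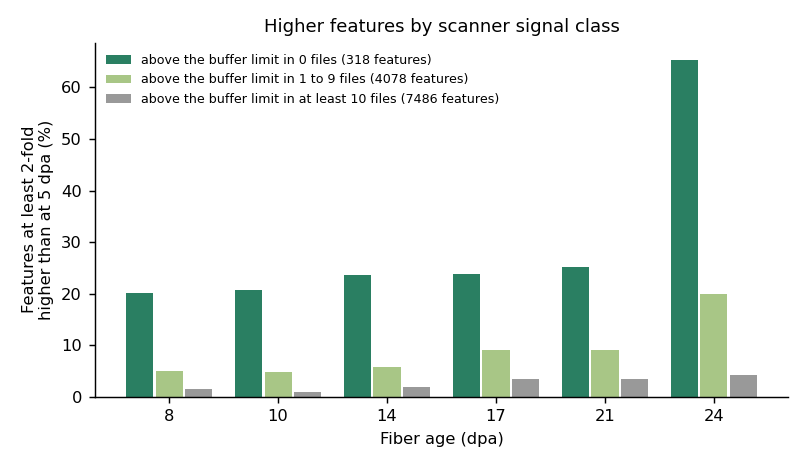
Percent of features at least 2-fold higher than at 5 dpa (vertical axis) at each stage in dpa, for features above the buffer limit in 0 files (318 features, the class of GPX), in 1 to 9 files (the class of ferritin 3) and in at least 10 files (the class of GST). The share in the dim class is the highest at every stage and reaches 65.4% at 24 dpa, against 20.0% in the class of ferritin 3 and 4.18% in the bright class.

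The ratio between the dyes of an array is a measurement of ferritin 3 and GST that does not pass through the loop model, although the same arrays feed the deposited values. After normexp background correction with an offset of 50 and loess, the dyes differed for ferritin 3 by 0.33 (log2) on the array filed under 8 dpa, 0.52 under 10 dpa, 0.12 on the array shared by 14 and 17 dpa, 2.40 under 21 dpa and 0.53 under 24 dpa. For GST the sizes on the same arrays were 0.55, 0.78, 0.94, 2.72 and 2.22. This correction pulls the ratios of weak spots toward 0. The array filed under 21 dpa had the largest difference for ferritin 3. For GST the order of the arrays filed under 21 and 24 dpa turns with the correction, since with the background subtracted the sizes were 4.44 (21 dpa) and 5.45 (24 dpa).

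With the background subtracted, the arrays centered on their median and a dye under the buffer limit set at that limit, ferritin 3 differed between the dyes by at least 1.53-fold (8 dpa), at least 7.75-fold (10 dpa), 1.09-fold (14 and 17 dpa) and 12.2-fold (21 dpa). No fold is given for ferritin 3 on the array filed under 24 dpa, since the dye that was brighter after centering lay under its limit there. For GST the differences were 1.54-fold, 2.55-fold and 2.36-fold on the first 3 arrays, at least 12.9-fold on the array filed under 21 dpa and at least 5.92-fold on the one filed under 24 dpa, where the centering rests on an image whose median spot was under the limit. Of the 4 arrays that gave a value for both genes, ferritin 3 and GST were brighter in opposite dyes on 3, and the exception was the array shared by 14 and 17 dpa, where ferritin 3 hardly differed. For GPX no ratio is given, since both dyes lay under the limit on all 5 arrays.

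Other described genes of redox and iron chemistry were taken from a list of 11 that holds the 3 genes; described genes were selected by the study on these samples, so their count is not independent evidence. Of the 11, 5 passed 2-fold on the higher side and 4 on the lower side at 24 dpa, where 11.3% of all features were higher and 12.3% lower. At 8 dpa 2 were higher and 2 lower, beside 3.20% and 2.77% of all features. The 3 members, which were selected for passing, are among these counts. The list's median log2 ratio was 0.94 at 24 dpa and that of all features was -0.01. Without the 3 members, 3 of 8 were higher and 3 lower at 24 dpa, with a median of 0.15, and 0 were higher and 1 was lower at 8 dpa. The counts at 8 dpa are too small to be set against the share over all features, and nothing is read from them.

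Mitochondrial cytochrome c oxidase subunit II, a component of the respiratory chain, had a log2 ratio of 0.11 in fiber of 8 dpa, of 1.42 and 3.35 at 14 and 17 dpa, and of 4.23 in fiber of 24 dpa. It passed 2-fold from 14 dpa on. Ferritin 3 did so from 8 dpa on, but it was selected on its values at every stage, so no difference in timing is read. A short-chain dehydrogenase was at 0.52 at 8 dpa and past 2-fold from 14 to 24 dpa, with 1.40 at 14 dpa and 1.44 at 24 dpa, and an oxylase-like protein of the iron-dependent dioxygenase family passed 2-fold at 24 dpa alone, with 1.95. The T29M8.7 protein, listed for a heme synthesis term, had 0.27 at 8 dpa and 0.94 at 24 dpa and did not pass 2-fold.

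On the lower side, with GST, flavanone 3-hydroxylase, an enzyme of flavonoid synthesis, had -1.37 and -0.50 at 8 and 10 dpa and -1.69 at the oldest stage. The omega-3 fatty acid desaturase, which introduces a double bond into membrane lipids, was within 2-fold up to 17 dpa and had -2.26 and -3.47 at 21 and 24 dpa. A CER1-like protein, named for a gene of wax synthesis in Arabidopsis, had -0.33 at 8 dpa and -1.17 at 24 dpa, and a monocopper oxidase was at -0.63 at 24 dpa, within 2-fold. None of the other 8 was as far below 5 dpa as GST at any stage. GST was selected on these values, so nothing is read from this.

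**Figure D5:**
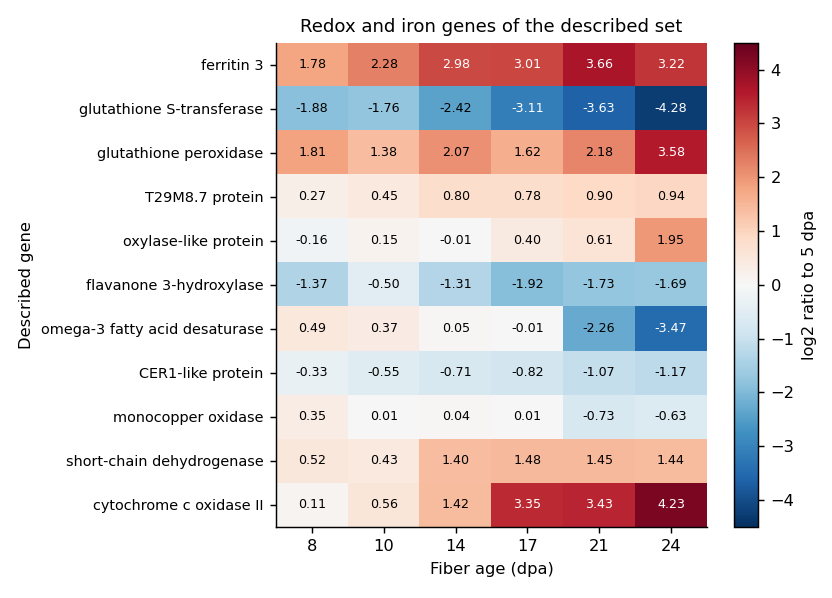
Deposited log2 ratio to 5 dpa (color and printed value) of the 11 described redox and iron genes (rows) at each stage in dpa (columns), 1 deposited value per cell. Ferritin 3, GST and GPX in the top rows are past 2-fold at all 6 stages, and cytochrome c oxidase subunit II reaches 4.23 at 24 dpa after 0.11 at 8 dpa.

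By Pearson's r, which compares shape and not size, more features were like GST than like GPX or ferritin 3. Features with r of at least 0.95 to GST over the 6 stages numbered 432 (3.64%), to GPX 131 (1.10%) and to ferritin 3 74 (0.623%). Of the 10 features most like each member, leaving out 24 dpa kept 4 for GST, 1 for GPX and 2 for ferritin 3. Which features are most alike thus depends on the stages used. The single feature most like ferritin 3, GA_10dpa_fiberEST_03633 (r = 0.99), had the same shape at a small size, with log2 ratios between -0.20 and 0.28. The one most like GST was GA_10dpa_fiberEST_00384 (r = 1.00), at -1.12 at its lowest, and the one most like GPX was GA_10dpa_fiberEST_02547 (r = 0.99), with 2.27 at 24 dpa.

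Among described features, those most like ferritin 3 were a protease P27 (r = 0.96, 2.87 at 24 dpa), the T29M8.7 protein (r = 0.96) and a Yippee-like protein (r = 0.95, 4.92 at 24 dpa). Those most like GST were a nucleic acid binding protein-like gene (r = 0.99, -1.62 at 24 dpa), a calcium-dependent protein kinase (r = 0.97, -1.64) and a sucrose synthase (r = 0.96, -2.41), an enzyme that splits sucrose for wall and energy metabolism. Those most like GPX were a putative DNA-binding protein (r = 0.94, 2.41), a WD-repeat protein (r = 0.93, 4.68) and Rab11C (r = 0.92, 2.75), a small GTPase of vesicle traffic. The likeness is one of shape over 6 points and was not tested.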

How the data were processed

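Total RNA from TM1 fiber was labeled with Cy3 or Cy5 and hybridized in a dye-swapped double loop. The log2 ratios to 5 dpa were deposited by the authors, who flagged poor spots and subtracted the background. Spots under the buffer mean plus 3 SD and divergent dye swaps were excluded, as were genes by the share of data points that passed. The authors then normalized the arrays and fitted linear models with LIMMA. In the 12 scanner files, ferritin 3 and GPX passed that kind of limit in 0 and GST in 3, yet all have values at 6 stages. How their values passed the authors' filter was not tested. The deposited ratios were used without further scaling. Raw scanner output was also deposited: it gives, per spot, a mean signal intensity, a mean background intensity and a score that flags spots the authors marked by hand, none of it normalized. Flagged spots were left out here, the local background was subtracted and both spots of a probe were averaged.

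The members and gene lists were chosen with earlier results of these data known. With 1 profile per stage nothing was tested, and 2-fold (a log2 ratio of 1) described a change. Dye ratios used limma 3.58.1 in R 4.3.3. The calculations were tested on simulated data. Named genes were the members, the 11 redox and iron genes, and, for each member, the feature and the 3 described features with the highest Pearson's r. Alternatives were thresholds of 1.5-fold and 3-fold, other filters, distances and background corrections, and profiles without 24 dpa. The number of arrays limits the precision. Gene names come from the study's descriptions of 125 probes; no probe was matched to a genome sequence.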

Additional observations from a re-analysis of the deposited data

How the results depend on the processing

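Of 49 alternatives computed, 34 left the value the same or near it, and 15 moved it. A count within a factor of 1.5 of the reported one was taken as near. An example is ferritin 3, above the limit in 6 files without background subtraction against 9. Most alternatives were counts or shares, which have no direction to reverse. The signed values were the log2 ratios at 24 dpa, and centering them on the median of all features (-0.0056) could not turn them. Of the 18 member values, 17 passed 3-fold (the exception was GPX at 10 dpa), and without 24 dpa, a setting chosen after seeing the data, 15 of 15 passed 2-fold. At 24 dpa, among 840 features above the buffer mean plus 3 SD in many files, 0.357% lay as far as ferritin 3, 0.00% as far as GST and 0.357% as far as GPX. The 3 members are not among these 840, so the shares set them against probes that passed this limit more often. They do not rank the members within their own class of signal. With the mean plus 3 SD, ferritin 3 and GPX were above the buffer in 0 files and GST in 3. With the median, ferritin 3 was above it in 9, GST in 10 and GPX in 0. Arrays whose dyes differed at least 2-fold numbered 1 for ferritin 3 and 2 for GST with normexp, 4 and 4 with the background subtracted (for ferritin 3 these include the array filed under 24 dpa, where its brighter dye lay under the buffer limit), and, for ferritin 3, 2 without background correction. Of the 10 features most like each member, Euclidean distance kept 0 for each of the 3, and leaving out 24 dpa kept 2 for ferritin 3, 4 for GST and 1 for GPX. At 14 dpa, 3 redox and iron genes passed 3-fold, against 6 at 2-fold. Apart from what each limit does by construction, the cause was not tested. No paired analysis was possible because each stage has 1 profile.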
